A study of Mus musculus with 1920 samples.

Results

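The genes described here build the junctions that hold epithelial cells together. They were listed by name from what their proteins are known to do, by a rule that uses no measured value, although earlier results of these data were known when the list was made. They comprise 34 of the 55471 genes counted in the series. These are 7 claudins, 7 other tight junction genes, 6 cadherins and catenins (Cdh1, Cdh17, Ctnna1, Ctnnb1, Ctnnd1 and Jup) and 6 desmosome genes. The others are 4 nectins with afadin, Epcam, and the brush border cadherins Cdhr2 and Cdhr5. The cells came from small intestinal crypts and were sorted for strong fluorescence from a reporter in the Lgr5 gene (Lgr5 high-ISCs, for intestinal stem cells). They were taken from 3 young mice, labeled Young, and 4 aged mice, labeled Old. Both groups carried the same knock-in allele, B6.129P2-Lgr5tm1(cre/ERT2)Cle/J, which places green fluorescent protein and a tamoxifen-dependent Cre under the Lgr5 gene, on a C57BL/6 background, and which is known to be active in only a part of the crypts. Neither the labels nor the methods state for these 7 mice an age in weeks or a tamoxifen dose. The study used these cells to ask what changes in ISCs with age, cell adhesion included. Of 1920 cells, the 1836 with at least 1000 detected genes were used, between 160 and 376 per mouse, which gave 49447464 to 134408884 reads per mouse. Reads were PCR copies without molecular identifiers, so no precision is drawn from read numbers and errors are given over mice.

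Epithelial cells of the crypt are joined near their apical side by tight junctions, in which claudins and occludin seal the space between cells and are tied to actin by the zonula occludens proteins and cingulin. Just below lie adherens junctions, in which E-cadherin binds its like on the next cell and holds beta-catenin, alpha-catenin and p120-catenin on the inside, and in which nectins are held by afadin. Desmosomes add strength through desmoglein and desmocollin, which plakoglobin, plakophilins and desmoplakin link to keratin filaments. Cldn2 forms a pore for cations and water and is known from crypts, and Cdhr2 and Cdhr5 link the microvilli of enterocytes.

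Whether the sorted cells matched their label was checked with marker lists that hold no junction gene described here. A cell was put in the class whose list had the highest mean log2(CPM + 1), where CPM is the read count of a gene scaled to the depth of its library. The ISC list led in 1550 of the 1836 cells, the Paneth list in 136, the enterocyte list in 76, the goblet list in 53, the tuft list in 17, the stromal list in 3 and the enteroendocrine list in 1. Lgr5 had a mean of 368 CPM in ISC-led cells and of 107 to 118 CPM in cells led by the other 3 larger lists. Lgr5 is itself on the ISC list, so this difference follows in part from the assignment and is no separate check. In 68 cells the leading list was ahead by less than 0.5, so these classes are ranges of a score rather than types. Of the ISC markers 3 of 17 were higher in aged mice, of the Paneth markers 8 of 9, of the goblet markers 8 of 8 and of the enterocyte markers 12 of 13. Of the enteroendocrine markers tested 6 of 9 were higher in aged mice, and of the tuft markers 7 of 9, while 48.3% of all genes were lower. The summed levels of the immune and stromal lists lay between 0.0345 and 6.19 CPM. ISC-led cells made up 86.9% to 93.5% of the cells of a young mouse and 72.4% to 89.4% of those of an aged mouse. In the sums over all cells of a mouse, a change in the share of a class and a change within its cells cannot be told apart, so the age comparison was also fitted on ISC-led cells alone.

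Sequences of 4 promoters are shown for the genes on which the results turn: Cldn4, the 1 gene here with an unadjusted p under 0.05 between ages, and Cldn2, Cdhr2 and Cdhr5, which stood apart between cell classes. Each window runs from 250 bases before to 50 bases after the gene's start in RefSeq on GRCm38.p6, in the direction of transcription. Capitals mark an E-box core (CACCTG on either strand, a sequence that Snail-type repressors of junction genes are known to bind) or a TATA box (TATAAA on either strand).
Cldn4, chr5:134946885-134947184, minus strand: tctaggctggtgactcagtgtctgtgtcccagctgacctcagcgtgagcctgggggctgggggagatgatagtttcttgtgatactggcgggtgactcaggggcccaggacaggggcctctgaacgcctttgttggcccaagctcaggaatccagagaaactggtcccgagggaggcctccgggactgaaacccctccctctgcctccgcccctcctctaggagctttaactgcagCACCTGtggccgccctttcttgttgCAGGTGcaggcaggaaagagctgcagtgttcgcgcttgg
Cldn2, chrX:139800558-139800857, plus strand: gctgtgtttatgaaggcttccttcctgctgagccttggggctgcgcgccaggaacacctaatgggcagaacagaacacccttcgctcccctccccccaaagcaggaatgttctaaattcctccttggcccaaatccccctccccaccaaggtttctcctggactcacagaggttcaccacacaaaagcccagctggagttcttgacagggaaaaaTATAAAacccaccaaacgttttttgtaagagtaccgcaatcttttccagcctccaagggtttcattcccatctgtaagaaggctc
Cdhr2, chr13:54701213-54701512, plus strand: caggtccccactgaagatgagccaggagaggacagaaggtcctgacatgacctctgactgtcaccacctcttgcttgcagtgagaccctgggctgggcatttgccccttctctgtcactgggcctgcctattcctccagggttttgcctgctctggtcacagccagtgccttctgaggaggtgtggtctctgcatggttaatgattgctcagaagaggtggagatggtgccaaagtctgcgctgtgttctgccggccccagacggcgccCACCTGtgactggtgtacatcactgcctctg
Cdhr5, chr7:141276737-141277036, minus strand: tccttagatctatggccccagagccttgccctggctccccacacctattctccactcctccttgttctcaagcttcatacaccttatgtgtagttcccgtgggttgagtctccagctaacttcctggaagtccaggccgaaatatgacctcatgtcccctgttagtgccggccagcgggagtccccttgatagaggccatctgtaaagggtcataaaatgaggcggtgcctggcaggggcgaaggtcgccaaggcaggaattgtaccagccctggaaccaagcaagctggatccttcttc
The Cldn4 window held 2 E-box cores, at 14 bases before the start (CACCTG) and at base 12 after it (CAGGTG). The Cdhr2 window held 1 E-box core and the Cldn2 window 1 TATA box, whereas Cdhr5 had neither. Windows of 24 of the 34 genes were used, with several for some genes, and those of the other 10 were not used here. Of these 33 windows, 15 held an E-box core, against 20.2% of 32851 windows of all genes. A TATA box was found in 5 of the 33 windows and in 13.6% of all windows. The core CTTTGA, a form of the site of the Wnt effectors TCF and LEF, was in 0 of the 33 windows and in 16.0% of all windows. Other forms of that site were not searched, so this count does not show that the windows lack such a site. The HNF4 motif CAAAGNNCA was in 1 of the 33 windows, that of Tjp3, and in 6.36% of all windows. The HNF4 motif and the reverse of the TCF core share the letters CAAAG. These motifs were chosen after expression values were known, and a match describes letters, not a bound site.

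The levels of the 34 genes per kilobase of exon spanned 513-fold. Cldn3, a sealing claudin, had the highest level per kilobase, 756 ± 175 CPM per kb (SD, n = 7 mice). Epcam, which binds and stabilizes claudins, followed with 661 ± 64.5 CPM per kb. The mice of both genes overlapped. Cldn7, the claudin partner of Epcam, had 244 ± 24.1 CPM per kb and Cldn15, a pore-forming claudin, 179 ± 20.0 CPM per kb, and each stood apart from its neighbors in this order in all 7 mice. Cdh1, which encodes E-cadherin, came next with 82.9 ± 10.4 CPM per kb, and overlapped with Cdh17, the intestinal LI-cadherin. At the low end stood Tjp1, the zonula occludens protein ZO-1, with 3.04 ± 0.308 CPM per kb, Ctnnd1, which encodes p120-catenin, with 2.64 ± 0.366, Nectin4 with 1.81 ± 0.484 and Nectin1 with 1.47 ± 0.361 CPM per kb. Of the 33 steps between neighbors in the order, 28 had overlapping mice. Exon length is the union over all annotated transcripts, so a gene whose cells use short transcripts is placed too low. On the same strand, Ctnnd1 overlaps the protein-coding Gm28635 (0 reads), and Tjp1 overlaps Gm44794 (93 reads) and Gm44792 (0 reads). How reads in such overlaps were counted is not stated, and any effect on these levels was not tested.

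**Figure D1:**
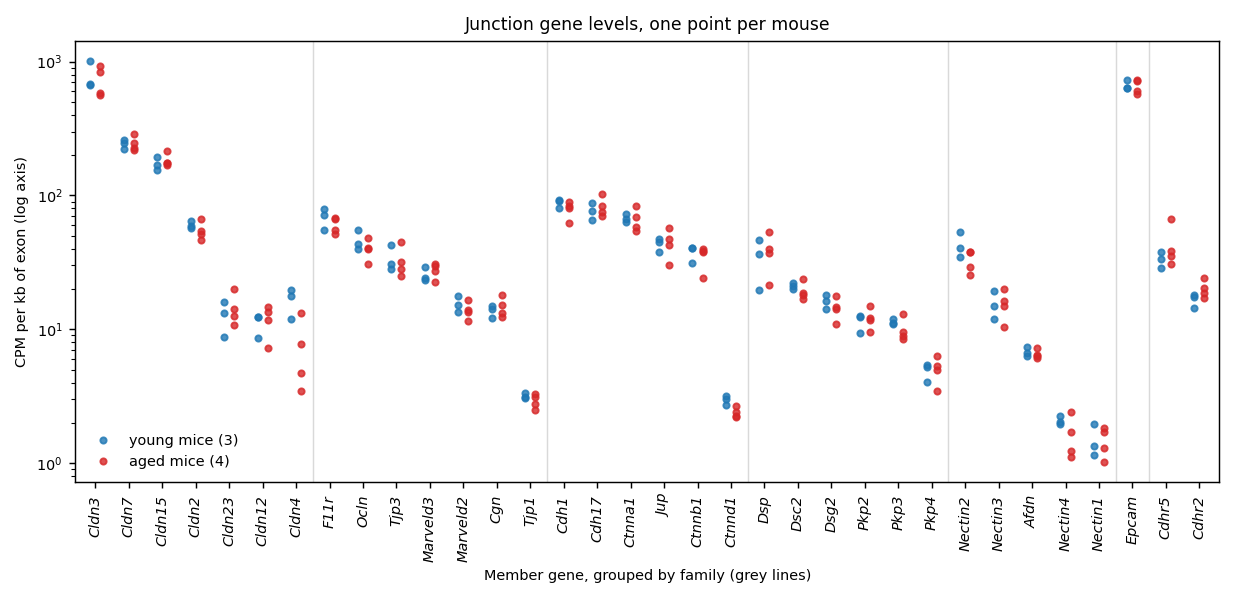
Levels of the 34 junction genes in CPM per kb of exon on a log axis, grouped by family, with a blue point for each of 3 young mice and a red point for each of 4 aged mice. Cldn3 and Epcam lie highest, Nectin4 and Nectin1 lowest, and the mice of both ages intermix for nearly every gene, with Ctnnd1 and most points of Cldn4 as exceptions.

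In every mouse, 16 of the 34 had at least 1 read in over 90% of cells, also after each cell was thinned to 100000 reads, and 8 of them had at least 5 reads in over 90% of cells. Cldn4 (23.8% to 62.5% of cells), Nectin4 (21.2% to 30.3%), Nectin1 (33.3% to 52.5%) and Cldn23 (38.8% to 56.8%) stayed below 70% in each mouse. Reads of Cldn4 were also unevenly spread over cells, since the 10% of cells with the most Cldn4 reads held 60.6% to 84.1% of them. For Cdh1 the top 10% of cells held 21.9% to 29.2%.

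No junction gene passed the adjusted threshold between young and aged mice, and most fold changes were close to 0. All 34 passed the filter on low counts, 0 of the 34 passed an adjusted p of 0.05 in edgeR's quasi-likelihood test on sums per mouse, and 0% of the 20957 genes tested did so. An unadjusted p under 0.05 was reached by 1 of the 34, against 5.24% of all genes. DESeq2 also called 0 of the 34, with 0.845% of all genes called. The median log2 fold change, aged over young, was -0.04 over the 34 genes and 0.01 over all genes. Of the 34, 20 had a log2 fold change below 0, where 48.3% of all genes did, and 27 had one within 0.2 of 0. The 95% interval lay within 1 of 0, meaning under a doubling or halving, for 32 of the 34 genes and for 49.9% of all genes, with Cldn4 and Nectin4 as the exceptions. In 1 gene, Ctnnd1, every aged mouse lay below every young mouse, which held for 3.1% of all genes, and in 0 genes did every aged mouse lie above, against 2.51% of all genes. On ISC-led cells alone, 0 of the 34 passed adjustment and 1, again Cldn4, had an unadjusted p under 0.05, against 4.84% of all genes. There 19 of the 34 were below 0, with a median of -0.04 (0.02 over all genes), and 31 of the 34 log2 fold changes lay within 0.1 of the value from all cells, the exceptions being Cldn4, Cdhr2 and Cdhr5. The labels separate the mice by group and number only, and the p values rest on the spread between these 7 mice.

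**Figure D2:**
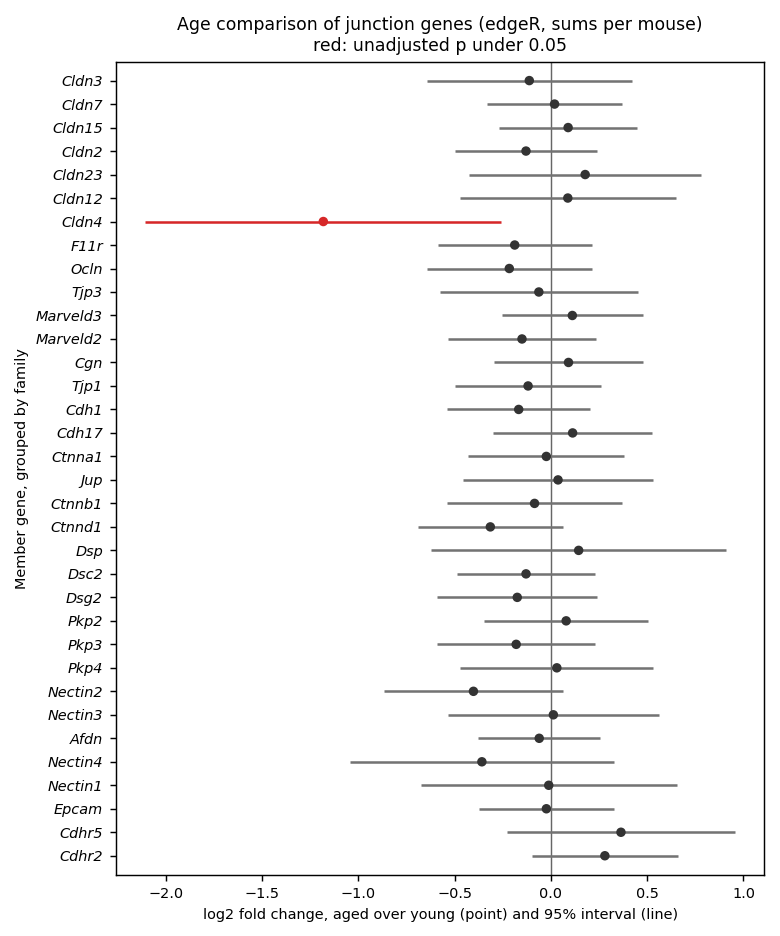
Log2 fold change between aged and young mice (point) with its 95% interval (line) for each junction gene, from edgeR on sums per mouse. Cldn4 is the gene in red, at -1.18 with an interval that leaves out 0, while the intervals of the other 33 genes include 0.

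Cldn4, a claudin of barrier-forming epithelia on chromosome 5 (GRCm38, 134945119 to 134946934, minus strand), had the lowest fold change of the 34 genes. Its level was 21.7, 32.4 and 35.8 CPM in young mice 1 to 3 and 24.0, 14.0, 6.32 and 8.59 CPM in aged mice 1 to 4. Aged mouse 1 lay above young mouse 1, and the other 3 aged mice lay below all young mice. The log2 fold change was -1.18 ± 0.412 (SE), with a 95% interval from -2.11 to -0.26, an unadjusted p of 0.0176 in edgeR's quasi-likelihood test and an adjusted p of 0.808. Cldn4 is among the genes that the study's own list of these samples gives as lower in aged cells, so its direction is not independent evidence. In ISC-led cells alone the level was 22.3, 33.1 and 36.8 CPM in young mice and 21.1, 11.7, 5.93 and 5.18 CPM in aged mice, with no overlap. The log2 fold change there was -1.49 ± 0.453 (SE, edgeR p = 0.0087, adjusted p = 0.756). ISC-led cells held 91.4% to 97.1% of the Cldn4 reads of a young mouse and 49.0% to 82.9% of those of an aged mouse. The share of cells with a Cldn4 read was 48.7% ± 15.5 (SD, n = 3) in young and 31.5% ± 7.08 (SD, n = 4) in aged mice, a difference that an exact two-sided permutation test did not separate (p = 0.171, where the smallest p these group sizes allow is 0.0571). Without young mouse 3 the p of the fold change in edgeR rose to 0.0598 and the log2 value moved to -1.03.

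The other claudins had log2 fold changes between -0.13 and 0.18. Cldn2 had 215, 195 and 189.6 CPM in young mice 1 to 3 and 222, 155, 182 and 173 CPM in aged mice 1 to 4. The highest value was that of an aged mouse, so the ages overlapped, and the log2 fold change was -0.13 ± 0.163 (SE, edgeR p = 0.447), or -0.07 ± 0.156 in ISC-led cells. Cldn3 had 1278, 849 and 854 CPM in young and 1054, 737, 1177 and 709 CPM in aged mice. Its highest values came from young mouse 1 and aged mouse 3, whose cells shared a code read below as a sequencing lane, and the ages overlapped. Cldn7, Cldn12, Cldn15 and Cldn23 each overlapped between the ages.

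The 7 other tight junction genes had log2 fold changes between -0.22 and 0.11, and 5 of them were below 0. F11r, which encodes the junctional adhesion molecule JAM-A, was highest per kilobase in this family. Its level was 190.4, 148 and 211 CPM in young and 177, 148, 137 and 181 CPM in aged mice, so all aged mice lay within or just under the young range. Ocln, the occludin gene, had the lowest fold change of the family, and the ages overlapped for each of the 7.

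Among cadherins and catenins, 4 of 6 genes had a log2 fold change below 0, with a family median of -0.05. Cdh1 had 372, 416 and 425 CPM in young mice and 379.8, 367, 284 and 409.6 CPM in aged mice. Aged mouse 3 was low, the other aged mice lay within or near the young range, and the log2 fold change was -0.17 ± 0.166 (SE, edgeR p = 0.338), or -0.15 ± 0.171 in ISC-led cells. Ctnnb1, the beta-catenin gene, had 162, 209.6 and 209 CPM in young mice and 198, 206, 126 and 199 CPM in aged mice. The lowest values came from young mouse 1 and aged mouse 3, and the log2 fold change was -0.08 ± 0.203 (SE, edgeR p = 0.685), or -0.07 ± 0.208 in ISC-led cells. On the opposite strand Ctnnb1 overlaps Ulk4, which was given 30.5% as many reads in counts whose strand setting is unknown. Tjp3, Nectin2 and Afdn likewise overlap genes on the opposite strand that held 7.98% to 17.7% as many reads as they did.

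Ctnnd1, which overlaps Gm28635 on the same strand as given above, keeps cadherins at the cell surface. Its level was 22.1, 19.9 and 23.3 CPM in young mice and 17.7, 19.4, 16.3 and 16.5 CPM in aged mice. The ages did not overlap, although the gap between young mouse 2 and aged mouse 2 was small. The log2 fold change was -0.31 ± 0.167 (SE), with an unadjusted edgeR p of 0.0910. In ISC-led cells it was -0.35 ± 0.178 (SE, edgeR p = 0.0771), again without overlap. This gene's fold change, and those of Cdhr2 and Cdhr5 given further on, were chosen for the text after their values had been seen.

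Desmosome genes divided evenly, 3 above and 3 below 0, with log2 fold changes between -0.18 and 0.14. Desmoplakin, the keratin anchor of the desmosome, was highest per kilobase. Dsp had 453, 351 and 191 CPM in young mice and 388, 361, 512 and 205 CPM in aged mice. It varied 2.68-fold over the 7 mice, with the lowest value of each age in young mouse 3 and aged mouse 4, and the ages overlapped. The desmoglein, desmocollin and plakophilin genes measured here (Dsg2, Dsc2, Pkp2, Pkp3, Pkp4) each varied less than 2-fold.

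Nectins and afadin had a family median of -0.06, and 4 of the 5 were below 0. Nectin2 had 187, 121 and 142 CPM in young mice and 131, 88.7, 132 and 101 CPM in aged mice. Only aged mice 2 and 4 lay below all young mice, and the log2 fold change was -0.40 ± 0.207 (SE, edgeR p = 0.0824, adjusted p = 0.999). In ISC-led cells it was -0.40 ± 0.211 (SE, edgeR p = 0.0883). Nectin4 had 7.38, 7.56 and 8.37 CPM in young mice and 8.97, 4.17, 4.65 and 6.45 CPM in aged mice. Aged mouse 1 was the highest of all 7 and the other 3 aged mice were the lowest. The log2 fold change was -0.36 ± 0.305 (SE, edgeR p = 0.268), or -0.34 ± 0.301 in ISC-led cells. Both genes are shown in the study as lower in aged cells, on these same samples. Nectin1 (-0.01), Nectin3 (0.01) and Afdn (-0.06) had log2 fold changes near 0.

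Epcam was the steadiest of the strongly expressed genes, with 1394, 1609 and 1389 CPM in young mice and 1571, 1601, 1262 and 1328 CPM in aged mice. Aged mice 3 and 4 lay below the young mice and aged mice 1 and 2 within their range, and the log2 fold change was -0.02 ± 0.157 (SE, 95% interval -0.38 to 0.33, edgeR p = 0.884), or -0.02 ± 0.152 in ISC-led cells.

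Cdhr2 and Cdhr5 had the 2 highest fold changes of all 34 genes. Values of enterocyte markers are given beside them, and any link was not tested. Cdhr5 had 92.6, 78.6 and 103 CPM in young mice and 84.1, 106, 97.2 and 183 CPM in aged mice. Aged mouse 4 stood far above the rest, and the log2 fold change was 0.36 ± 0.264 (SE, edgeR p = 0.199). Cdhr2 had 59.1 to 74.1 CPM in young and 70.8 to 99.5 CPM in aged mice, a log2 fold change of 0.28 ± 0.168 (SE, edgeR p = 0.129). In ISC-led cells alone the values were -0.06 ± 0.169 (SE, edgeR p = 0.724) for Cdhr5 and 0.12 ± 0.147 (SE, edgeR p = 0.427) for Cdhr2. Of the 13 enterocyte markers, 12 were higher in aged mice. An unadjusted edgeR p under 0.05 was reached by 10 of the 13, against 5.24% of all genes. The summed level of that list was 1187 to 1421 CPM in young and 1145 to 2876 CPM in aged mice, with no marker at 0 in any mouse, and enterocyte-led cells were 0.541% to 2.50% of young and 1.06% to 10.4% of aged cells. These cells gave 2.53%, 24.9%, 17.9% and 41.3% of the Cdhr5 reads of aged mice 1 to 4 and 7.03% to 11.7% of those of a young mouse, so aged mouse 1 lay below the young mice and the other 3 above them.

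**Figure D3:**
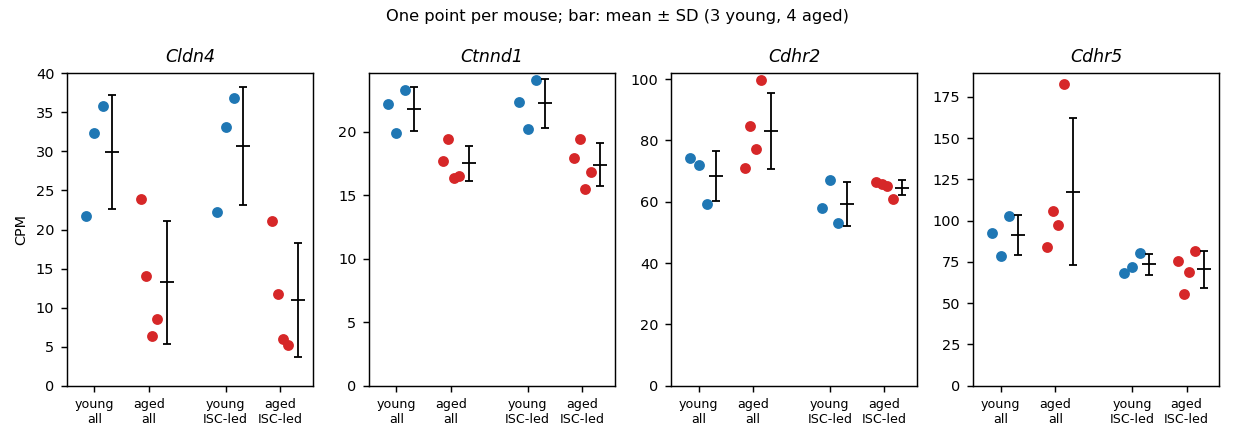
Level in CPM, from 0, of Cldn4, Ctnnd1, Cdhr2 and Cdhr5 in each young (blue) and aged (red) mouse, over all cells and over ISC-led cells, with the mean ± SD as a black bar. Among ISC-led cells every aged mouse lies below every young mouse for Cldn4 and Ctnnd1, and the high Cdhr5 value of aged mouse 4 falls from 183 to 81.6 CPM.

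Because cells of both ages shared some of the title codes read here as sequencing lanes, the comparison was repeated within them. The sample titles carry 5 such codes of 384 cells each, which match the number of cells that the study's methods give per lane. Cells were also sorted into 384-well plates, so a code may stand for a plate instead, and no label says which. Of these lanes 3 held both ages, pairing aged mouse 1 and aged mouse 2 with different cells of young mouse 2, and aged mouse 3 with young mouse 1. Aged mouse 4 and young mouse 3 each had a lane of their own. Cldn4 was lower in the aged mouse in all 3 lanes, by 0.56, 1.05 and 1.64 on the log2(CPM + 1) scale, in each lane the furthest from 0 of the 34 genes. In total 9 of the 34 genes were lower in the aged mouse in all 3 lanes (Cldn4, Ocln, Tjp3, Cdh1, Ctnnb1, Ctnnd1, Dsg2, Nectin2 and Nectin3), where 15.8% of 20218 genes were, and Dsp was the 1 gene higher in all 3. Cells of young mouse 2 in its 2 lanes differed by a median of 0.15 (absolute log2 difference over the 34 genes), which lay within the 0.11 to 0.21 found between ages in the 3 lanes. With lane as a block in edgeR, Cldn4 (-1.15 ± 0.256, SE, p = 0.0046), Cdh1 (-0.24 ± 0.0928, SE, p = 0.0406) and Nectin2 (-0.29 ± 0.114, SE, p = 0.0462) had an unadjusted p under 0.05, against 7.57% of all genes, and 0 of the 34 passed adjustment. Young mouse 2 enters this fit once per lane, so its p values overstate the replication. Dsp had 455 and 514 CPM in the lane shared by young mouse 1 and aged mouse 3, and 353 to 389 CPM in the other shared lanes. It had 192 and 207 CPM in the lanes of young mouse 3 and aged mouse 4. Lane and mouse cannot be told apart in these values, and young mouse 2 had 360 and 353 CPM in its 2 lanes.

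**Figure D4:**
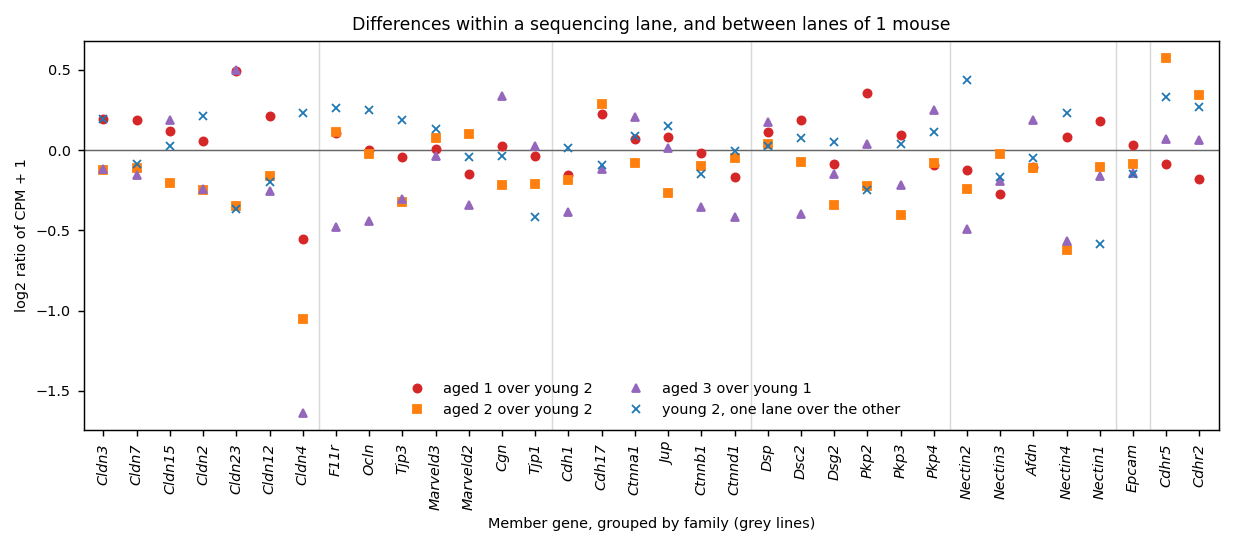
Log2 ratio of CPM + 1 for each junction gene between the aged and the young mouse of each of 3 shared lanes, and between both lanes of young mouse 2 (crosses). The points of Cldn4 lie at -0.56, -1.05 and -1.64, and most other points lie near 0, where the crosses also lie.

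Junction genes also differed between cell classes. Since the cells were put in classes by measured markers, these values are a description with no test. Mice with at least 5 cells of both classes were used, which were 7 for Paneth-led cells and 4 (aged mice 2, 3 and 4 and young mouse 3) for enterocyte-led and for goblet-led cells. In a few mice, ratios fall on the same side of 0 for many genes, and the share of all genes is therefore given each time. Lyz1, the lysozyme gene of Paneth cells, had a mean of 61308 CPM in Paneth-led and 237 CPM in ISC-led cells. Lyz1 is on the Paneth list, so this difference follows in part from the assignment. The median gene was shifted by -1.17 in Paneth-led, -0.57 in enterocyte-led and -0.24 in goblet-led cells (log2 ratio to ISC-led cells). Each count is given on the CPM scale and after centering on the median of all genes, which was added after the values were seen. ISC-led cells had a median of 318888 reads, against 231439 in Paneth-led, 185560 in enterocyte-led and 308724 in goblet-led cells.

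In enterocyte-led cells (68 cells), 9 of the 34 genes were higher than in ISC-led cells in all 4 mice, against 11.7% of 11242 genes, and 6 were lower, against 43.3%. After centering, 16 were higher, against 23.6% of genes, and 1 was lower, against 21% of genes. The microvillar cadherins stood furthest apart. Cdhr5 had 590, 394, 1388 and 889 CPM in enterocyte-led cells of aged mice 2, 3 and 4 and young mouse 3, where ISC-led cells had 56.7, 66.7, 77.9 and 79.8 CPM. Its median log2 ratio was 3.41, and that of Cdhr2 was 2.63. Cldn23 (1.08), Cdh17 (0.79), Tjp1 (0.78), Dsg2 (0.42), Cldn7 (0.23), Cldn15 (0.15) and Epcam (0.12) were the other 7 genes higher on the CPM scale. Cldn2 was lower on both scales, the 1 gene to be so. It had 42.4, 81.0, 53.5 and 79.5 CPM in enterocyte-led cells of these mice and 177, 193, 186 and 197 CPM in ISC-led cells, with a median log2 ratio of -1.54. Nectin4 (-1.66), Dsp (-0.56), Ocln (-0.41), Ctnnb1 (-0.33) and Jup, the plakoglobin gene (-0.16), were lower on the CPM scale. Of these, Ctnnb1 and Jup were higher in all 4 mice once centered.

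In Paneth-led cells (136 cells), 27 of the 34 genes were lower in all 7 mice, against 71.7% of genes, and 1 was higher, against 1.25% of genes. After centering, 7 were lower, against 6.4% of genes, and 7 were higher, against 10.3%. The 7 lower ones were Nectin2, Cldn2, Tjp3, Marveld2, the tricellulin gene, Ocln, Jup and Ctnna1, with median centered log2 ratios from -0.70 to -0.19. The 7 higher ones were Cdhr5 (1.99), Cdhr2 (1.20), Nectin1 (1.15), Cldn4 (1.09), Tjp1 (0.86), Ctnnd1 (0.48) and Afdn (0.35), of which Ctnnd1 and Afdn were lower in all 7 mice on the CPM scale. Cdhr5 alone was higher on both scales, with a mean of 133 ± 35.5 CPM in Paneth-led and 71.7 ± 8.24 CPM in ISC-led cells (SD, n = 7 mice).

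In goblet-led cells (42 cells), 5 genes were higher in all 4 mice, against 7.17% of genes, and 7 were lower, against 23.1%. After centering these were 10, against 13.3% of genes, and 3, against 11.3%. Nectin1, a nectin of adherens junctions, was furthest up. It had 25.5, 16.5, 24.1 and 41.3 CPM in goblet-led and 6.18, 8.62, 9.25 and 6.75 CPM in ISC-led cells of aged mice 2, 3 and 4 and young mouse 3, a median log2 ratio of 1.59. Cdhr5 (1.48), F11r (0.47), Cldn3 (0.45) and Cldn15 (0.16) were also higher on both scales. Lower on both scales were Nectin3 (-0.86), Ocln (-0.52) and Cldn2 (-0.41). Nectin4, Dsp, Ctnna1 and Marveld3 were lower on the CPM scale only, and Marveld3 was higher in all 4 mice once centered. Cldn2, Ocln, Nectin4 and Dsp were thus lower than in ISC-led cells in each of the 3 classes on the CPM scale, and among these 4 genes Cldn2 was so on both scales in each class.

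**Figure D5:**
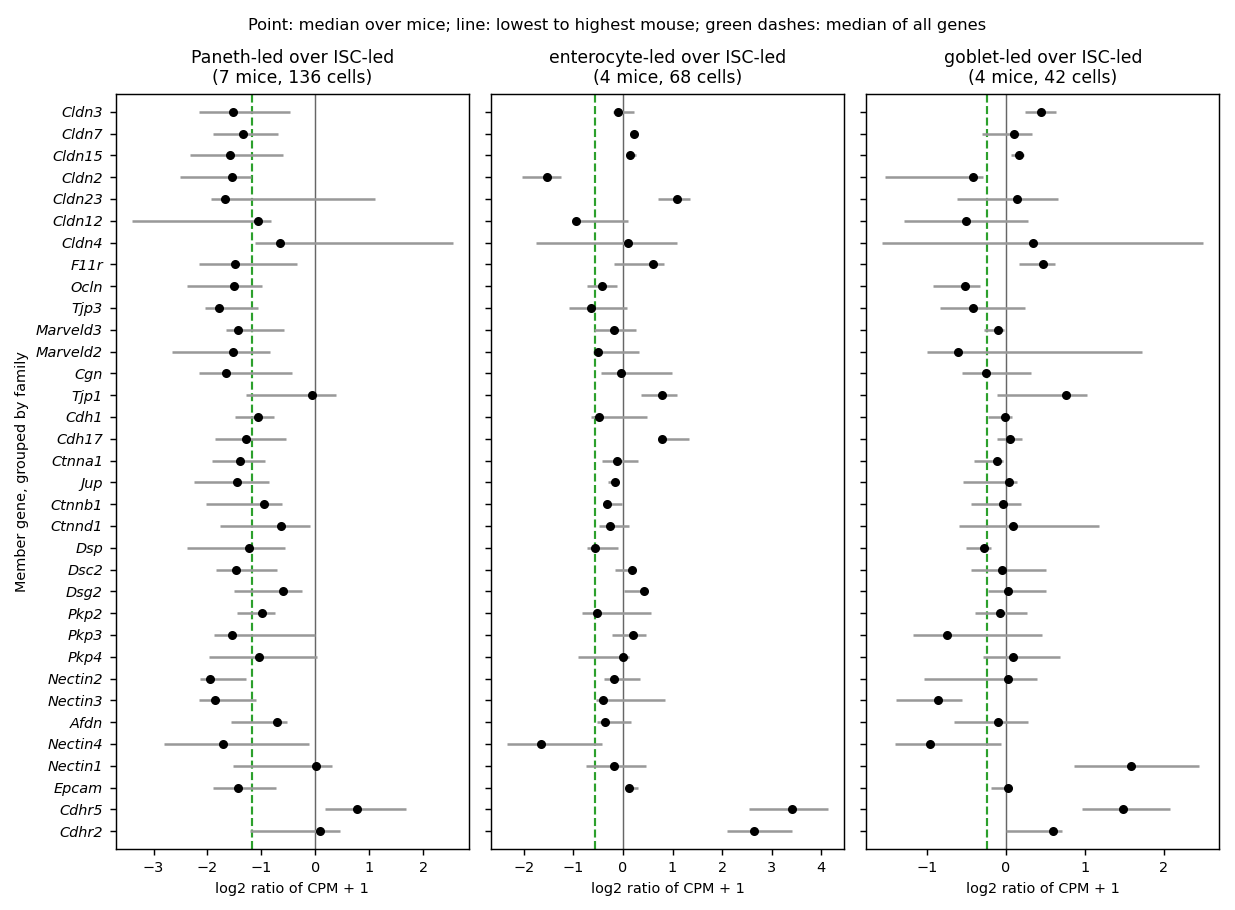
Log2 ratio of CPM + 1 in Paneth-led (7 mice), enterocyte-led (4 mice) and goblet-led cells (4 mice) over ISC-led cells of the same mice, with the median over mice as a point, the lowest to highest mouse as a line, and the median of all genes as a green dashed line. Cdhr5 lies to the right of the median of all genes in each panel, at 0.77, 3.41 and 1.48, and Cldn2 to its left.

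Within ISC-led cells, 38 of the 561 pairs of junction genes had a mean correlation above 0.2. Pairs of other genes were not measured, so these values have no reference level. Over the 561 pairs, Spearman's correlation of log2(CPM + 1), taken within each mouse and averaged over 7 mice, had a median of 0.09 and ranged from -0.15 to 0.42. It is a description over 1550 cells in which both genes share the depth of the same library. The highest pair was Cldn3 with Epcam (0.42, and 0.20 to 0.56 in single mice), followed by Cldn3 with F11r (0.35) and Cldn7 with Epcam (0.34). Cdh1 was most like Dsc2, a desmocollin (0.28), with Cldn7, Ctnnb1 (the catenin that E-cadherin binds) and Epcam next, at 0.27 each. After thinning to 100000 reads per cell the median was 0.07 and Cldn3 with Epcam remained at 0.41. Cdh1 was then at 0.27 with Dsc2, 0.25 with Epcam, 0.23 with Cldn7 and 0.21 with Ctnnb1.

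Other genes of the same junctions, listed as a background to the 34, were tested in the same fit. Of 103 names listed, 101 matched a counted gene (Cldn25 and Pals1 did not), and 70 passed the filter. Of these 70, 0 passed adjustment while 1 had an unadjusted p under 0.05, against 5.24% of all genes. Their median log2 fold change was -0.12, with 47 of 70 below 0, where 48.3% of all genes were. Below 0 were 20 of 25 other tight junction genes (median -0.18), 12 of 14 other adherens junction genes (-0.15), 6 of 10 other desmosome and keratin genes (-0.04) and 3 of 5 partners of Epcam (-0.06). Of the other claudins, 6 of 8 were above 0, with a median of 0.21, but most of the 6 were near the floor. Cldn9, Cldn14 and Cldn20 reached at most 0.28, 0.77 and 0.84 CPM in any mouse. Cldn5 had 8.01 CPM in aged mouse 3 and at most 1.12 CPM in the other mice. Cldn8 and Cldnd1 were higher, with lowest values of 5.86 and 66.3 CPM. The other nectin relatives and the partners of the brush border cadherins were each divided, 2 and 2. Without young mouse 1 the median over the 70 was -0.01. Ppl, which encodes the keratin-binding periplakin, had the lowest p. Its level was 12.5, 11.4 and 8.23 CPM in young and 4.91, 8.22, 4.81 and 6.71 CPM in aged mice, just without overlap, and the log2 fold change was -0.80 ± 0.280 (SE, edgeR p = 0.0181, adjusted p = 0.808). Krt20, a keratin of differentiated villus cells, followed with 1.15 ± 0.515 (SE, edgeR p = 0.0515). The next 6 by p were all below 0 (edgeR p from 0.0639 to 0.152), namely Patj (-0.41) and Pard3 (-0.29) of the apical polarity complexes, Pdlim1 (-0.28), Tmem47 (-1.83, from under 0.5 CPM in each mouse), the nectin relative Pvr (-0.55) and the angiomotin relative Amotl2 (-0.50).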

How the data were processed

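Lgr5 high-ISCs (3 young and 4 aged mice) were sorted singly into 384-well plates, and full-length cDNA was made from polyA RNA, amplified and sequenced with single-end reads. The authors used HISAT2 for alignment (GRCm38) and Picard for quality checks, and the values deposited are unnormalized counts for each gene in each cell. The submitters' processing notes name HTSeq without a version, and neither annotation nor strand setting is stated. Of 55471 gene identifiers, 55230 matched GENCODE M21, and the others held 0.00278% of reads.

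Cells with under 1000 detected genes were left out (84 of 1920), with no doublet caller, and counts were summed per mouse, the replicate. Each cell's mouse came from its labels. Tests across genes used edgeR 4.0.16 (the quasi-likelihood F test, TMM scaling, filterByExpr, Benjamini-Hochberg adjustment over all genes) in R 4.3.3. CPM values are TMM-scaled in the age comparison and divided by total reads in the class comparison, which used genes with a mean of at least 5 CPM and a pseudocount of 1. Scripts ran in Python 3.11.15 and were tested on simulated data. Alternatives were DESeq2 1.42.0, limma 3.58.1 with voom, other scaling, no filter, other sets of cells, thinning to 100000 reads (1732 cells), blocks, and each mouse left out. Cells weighted equally means limma on the mean CPM over the cells of a mouse, with log2(x + 1) taken after averaging.

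The genes and lists were chosen with earlier results of these data known. Genes got the value of every mouse if their p was under 0.05, the ages did not overlap, they were highest per kilobase of their family, or were Cldn2, Cldn4, Cdh1, Ctnnb1, Epcam, Nectin2 or Nectin4. Of the other junction genes the 8 with the lowest p were named, and of the class comparison those higher or lower in every mouse. Sequences came from RefSeq promoters (GRCm38.p6). No protein sequences were used here.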

Additional observations from a re-analysis of the deposited data

Results flagged for a closer look

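Among the 4 aged mice, 1 mouse stood apart from the other 3 by Dixon's criterion for 2 of the 34 genes, and chance marks about 1 in 20 groups. Cldn15 was high in aged mouse 1 (458 CPM, against 358 to 373 CPM in the other aged mice), with a gap of 0.847 of the range. Ctnnb1 was low in aged mouse 3 (126 CPM, against 198 to 206 CPM), with a gap of 0.897 of the range. Without aged mouse 3 the log2 fold change of Ctnnb1 was 0.06.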

How the results depend on the processing

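Under all 18 alternatives 0 of the 34 genes and 0 of the other junction genes passed adjustment, and the median over the 34 stayed between -0.17 and -0.03 with 19 to 28 genes lower in aged mice. The 28 came from weighting cells equally, which also placed 63.0% of all genes below 0. Genes among the 34 with an unadjusted p under 0.05 numbered 1 (5.24% of all genes), but 2 with thinned cells (6.92%), 3 with cells weighted equally (8.03%), 3 with lane as a block (7.57%), 0 with the replicate block (3.65%) and 0 to 2 with a mouse left out (0 without young mouse 3, 2 without young mouse 2, with 4.52% to 7.19% of all genes). With every aged mouse below every young mouse there was 1 gene (Ctnnd1, but Cdh1 instead with thinned cells), and 3 with cells weighted equally (6.18% of all genes, 3.1% in the fit of all mice), 2 in ISC-led cells (2.90%) and 1 to 6 with a mouse left out (4.73% to 6.97%), 6 without aged mouse 1, 4 without young mouse 1 and 3 without young mouse 2. For the other junction genes the unadjusted count was 1 (5.24% of all genes), but 2 with DESeq2 (6.67%), limma voom (5.20%) or RLE scaling (5.27%). Without the filter it was 7 (5.86% of 35388 genes), where genes that the filter removes were also tested. It was 3 thinned (6.92%), 8 with cells weighted equally (8.03%) and 6 with lane as a block (7.57%). With a mouse left out it was 1 to 6 (4.52% to 7.19% of all genes), 6 without young mouse 1, 4 without aged mouse 1 and 2 without aged or young mouse 3. Among the other junction genes the count without overlap was 3 of 70 (3.1% of all genes), but 5 thinned (3.37%), 6 with cells weighted equally (6.18%) and 1 with lane as a block (1.81%). With a mouse left out it was 3 to 10 (10 without young mouse 1, 8 without aged mouse 1 or young mouse 3, 6 without aged mouse 2, 5 without young mouse 2), against 4.73% to 6.97% of all genes. Direction reversed for Epcam with the replicate block (0.0089) and without aged mouse 3 (0.043), aged mouse 4 (0.014) or young mouse 2 (0.050, within -0.077 to 0.050 with a mouse left out), for Ctnnb1 without aged mouse 3 (0.063, within -0.198 to 0.063), and for Cdhr5 in ISC-led cells (-0.061). The cause was not tested. Cldn4 stayed between -1.64 and -0.95, with unadjusted p from 0.00079 to 0.0598 and 0.0570 with the replicate block. Deviations of same-numbered mice from their group means correlated at -0.11, 0.19 and -0.23, too few values to settle whether the numbers pair the mice. For mice sharing a lane they correlated at 0.14 (aged 1, young 2), 0.19 (aged 2, young 2) and 0.30 (aged 3, young 1). Detection in over 90% of cells fell from 16 to 8 genes at 5 reads. Centering changed the class counts, higher and lower, from 1 and 27 to 7 and 7 (Paneth-led), 9 and 6 to 16 and 1 (enterocyte-led) and 5 and 7 to 10 and 3 (goblet-led). With 3 against 4 mice, the intervals of Cldn4 and Nectin4 extend beyond a log2 change of 1.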
